A study of Mus musculus with 12 samples.

Results

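Prg2, Prg3 and Epx encode 3 abundant proteins of the eosinophil granule, and their transcripts were followed through 12 mouse RNA-seq libraries. The genes were chosen by symbol, as 3 of the 23362 genes used here. The libraries came from C57BL/6 mice in 4 groups of 3. The first pair of groups held granulocyte-monocyte progenitors (GMP), wild type (WT) or Xbp1-deficient (KO), sorted straight into Trizol, with libraries made by the TruSeq kit. The other pair held GMP of the same 2 genotypes that were purified by FACS, transduced with GATA2, sorted again and kept in culture for 48 h (GATA2-GMP), with cDNA amplified by the SMARTer Ultra Low Input kit before TruSeq. Stage, transduction, culture and kit therefore changed together, and their parts in any difference between GMP and GATA2-GMP cannot be told apart. A vector-only control was not analysed here. Neither the Xbp1 allele nor any Cre line behind the deficiency is named in the labels, and replicates are not tied to animals, so p-values measure the spread between these libraries, which may be technical.

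Eosinophils store cationic proteins in crystalloid granules and release them on activation. Prg2 encodes the major basic protein, which forms the crystal core and damages parasite and host membranes. Prg3 encodes a close homologue of it. Epx encodes eosinophil peroxidase, a heme enzyme that oxidises halides and thiocyanate and is the eosinophil counterpart of neutrophil myeloperoxidase, the product of Mpo. These proteins enter the endoplasmic reticulum (ER), and Xbp1 encodes a factor that acts in the unfolded protein response and raises the ER's folding and secretory capacity. GATA2 is a transcription factor of stem cells, mast cells, basophils and eosinophils.

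In the mm9 build, Prg2 (ENSMUSG00000027073.5) lies on the plus strand of chromosome 2 from 84820618 to 84823789, in 6 exon blocks. Prg3 (ENSMUSG00000027072.6) follows on the same strand from 84828353 to 84834043, in 7 exon blocks, 4563 nucleotides beyond the end of Prg2. Epx (ENSMUSG00000052234.2) lies on the minus strand of chromosome 11 from 87677502 to 87689038, in 14 exon blocks, and Mpo lies on the same chromosome on the plus strand from 87607083 to 87617915. The annotated coding sequences of Prg2 and Prg3 were identical at 442 of 654 aligned bases (67.6%), and the longest run their transcripts shared was 23 nucleotides. Epx and Mpo were identical at 1541 of 2132 aligned coding bases (72.3%), with a longest shared run of 26 nucleotides. No annotated gene overlapped any of the 3, and the closest, Mks1, ended 196 nucleotides from the end of Epx on the other strand.

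The bases just before 2 of the start sites are shown because the study raised GATA2, a factor that binds the letters GATA. The RefSeq promoter table (GRCm38.p6) matched Prg3 and Epx of the 3 genes. Each line runs 5′ to 3′ on the gene's strand over the 250 bases before the start, with GATA, read on either strand, in capitals (TATC is GATA on the other strand). The Prg3 window is chr2:84987965-84988214 on the plus strand, and the Epx window is chr11:87875537-87875786 on the minus strand.
Prg3: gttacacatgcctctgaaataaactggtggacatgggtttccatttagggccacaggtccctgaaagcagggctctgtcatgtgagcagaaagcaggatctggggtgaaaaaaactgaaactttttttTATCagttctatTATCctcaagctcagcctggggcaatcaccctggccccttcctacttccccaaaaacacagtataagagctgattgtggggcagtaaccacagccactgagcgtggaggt
Epx: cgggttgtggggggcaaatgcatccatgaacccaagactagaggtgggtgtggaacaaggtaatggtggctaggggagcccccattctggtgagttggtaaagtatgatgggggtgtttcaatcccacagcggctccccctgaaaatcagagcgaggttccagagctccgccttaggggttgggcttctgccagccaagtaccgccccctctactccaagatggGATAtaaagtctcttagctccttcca
The Prg3 window held 2 such matches, on the reverse strand, 122 and 110 bases before the start. The Epx window held 1, 26 bases before the start, and it overlapped a match to TATAAA that began 24 bases before the start. A GATA match stood in 53.6% of 32851 RefSeq promoter windows of that length and more than 1 stood in 24.2%, so the letters alone do not set these windows apart. TATAAA stood in 12.4% of windows. TTGCNNAA, the core bound by C/EBP factors, stood in 9.56% of all windows, GAGGAA, bound by PU.1, in 23.3%, and ACGTG, bound by XBP1, in 16.6%. None of these 3 letter strings, searched on both strands, was found in the Prg3 or Epx window.

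Sequencing depth ran from 8220484 gene counts (GMP KO 3) to 33645602 (GMP KO 2). Xbp1 itself was at 168 to 196 CPM (the counts-per-million scale of all gene counts) in the GMP WT libraries against 72.3 to 115 in the GMP KO libraries, and at 149.97 to 262 in GATA2-GMP WT against 87.0 to 103 in GATA2-GMP KO, so each KO library was below each WT library of its stage. Gata2 was at 29.2 to 50.8 CPM in the 6 GMP libraries and at 170 to 267 in the 6 GATA2-GMP libraries. Mpo, which marks GMP, took 2.10% to 2.48% of GMP counts. In bulk RNA, fewer cells of a type and less RNA per cell cannot be told apart, which holds for every level below.

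Prg2 was the most abundant transcript by count in all 6 GATA2-GMP libraries and a minor one in GMP. Its share of all gene counts in GMP WT was 0.0235%, 0.0133% and 0.00402% in libraries 1, 2 and 3, and in GMP KO it was 0.0591%, 0.0320% and 0.0299%. In GATA2-GMP WT it was 12.2%, 8.72% and 9.70%, and in GATA2-GMP KO it was 4.31%, 5.12% and 4.10%. All 6 GATA2-GMP libraries were far above all 6 GMP libraries, and within each stage the WT and KO shares did not overlap, but the order of the genotypes was opposite in the 2 stages. By count Prg2 ranked 811, 1940 and 5629 in GMP WT, and 150, 485 and 534 in GMP KO. GMP WT 3 was the lowest library, with 629 Prg2 counts. Its composition also differed: its gene with the most counts was Rn45s, a ribosomal RNA gene, where every other GMP library had Mpo. The counter rows took 61.9% of its records, the most of the GMP libraries. The part of this in its low shares was not tested.

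Prg3, the homologue, was also higher in all GATA2-GMP libraries than in any GMP library. Its share was 0.00141%, 0.000772% and 0.000294% in GMP WT and 0.00271%, 0.00175% and 0.00134% in GMP KO. In GATA2-GMP WT it was 0.547%, 0.347% and 0.349%, and in GATA2-GMP KO it was 0.191%, 0.220% and 0.179%. The GMP groups overlapped on this measure, since GMP KO 3 stood below GMP WT 1, and the GATA2-GMP groups did not. Prg3 in GMP WT 3 rested on 46 counts, where the 95% exact (Clopper-Pearson) interval reached 30.1% of the share to either side on average. Such intervals cover counting error only.

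In GATA2-GMP, Epx varied most of the 3 genes between libraries of a group. Its share was 0.00536%, 0.00353% and 0.00166% in GMP WT and 0.0155%, 0.00754% and 0.00850% in GMP KO. In GATA2-GMP WT it was 1.25%, 0.606% and 2.54%, and in GATA2-GMP KO it was 0.346%, 0.416% and 0.170%. The highest GATA2-GMP WT library was 4.19 times the lowest for Epx and 1.40 times for Prg2. GATA2-GMP WT 3 had the highest Epx share of all 12 libraries but only the second highest for Prg2.

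**Figure D1:**
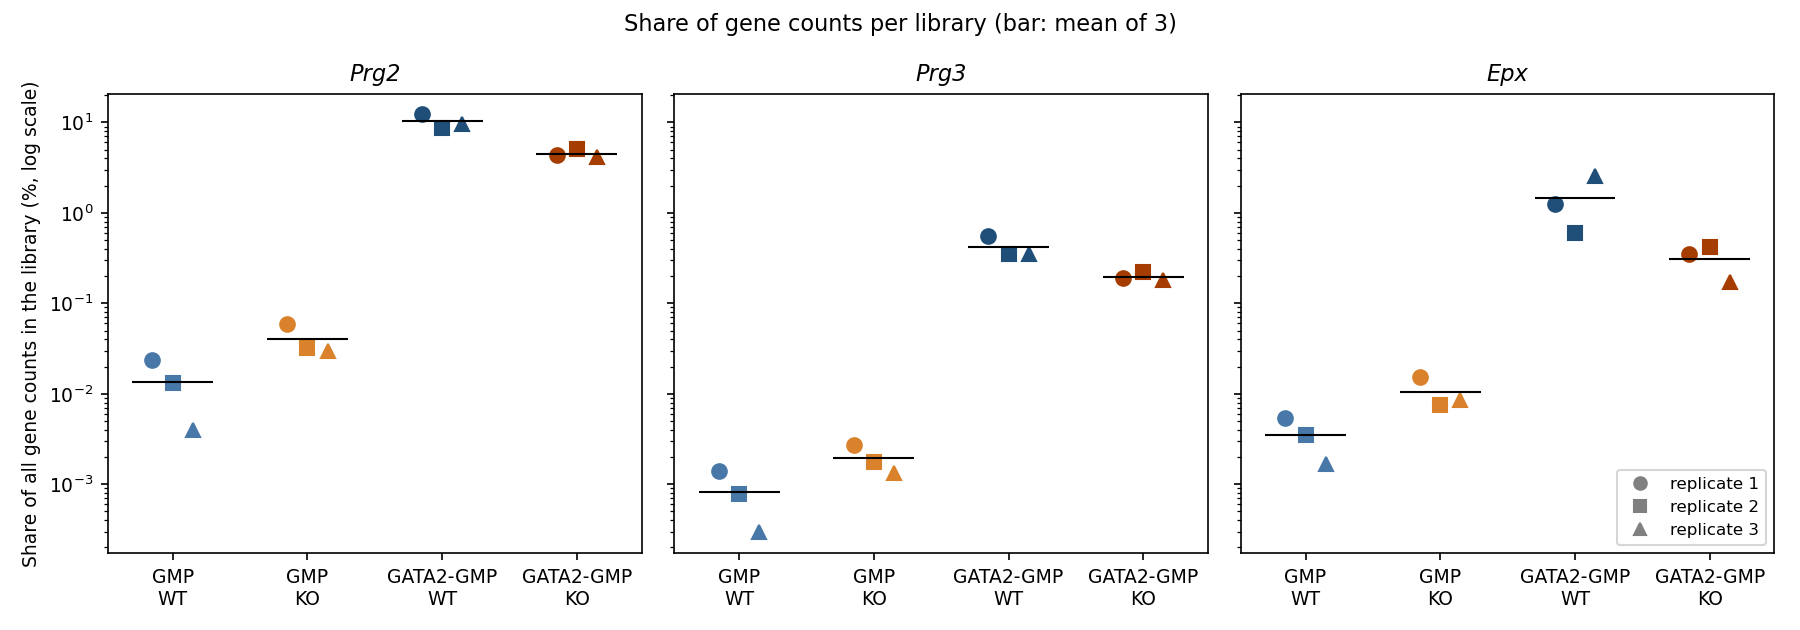
Share of all gene counts (percent, log scale) taken by Prg2, Prg3 and Epx in each of the 12 libraries, where each point is 1 library, its shape gives the replicate number and the bar is the mean of 3. GATA2-GMP libraries stand above all GMP libraries for each gene, KO points are mostly above WT in GMP and all below WT in GATA2-GMP.

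Together the 3 genes took 0.0179% ± 0.0122 (SD, n = 3) of gene counts in GMP WT and 0.0528% ± 0.0213 (n = 3) in GMP KO. They took 12.1% ± 2.23 (n = 3) in GATA2-GMP WT and 5.02% ± 0.667 (n = 3) in GATA2-GMP KO. Prg2 alone made 67.3% to 92.2% of their counts in each library.

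Compared per kilobase of exon, the order of the genes differed between stages. In each of the 6 GMP libraries Prg2 stood highest, then Epx, then Prg3; in GMP WT the means were 162, 12.9 and 8.503 CPM per kilobase. In GATA2-GMP KO Prg2 was still highest, at 53832 CPM per kilobase on average, but Prg3 (1842 to 2270) stood above Epx (622 to 1522) in all 3 libraries. In GATA2-GMP WT, Prg3 (5644, 3578 and 3602 CPM per kilobase) stood above Epx (4580, 2213 and 9270) in 2 of 3 libraries, so the spread over libraries does not separate Prg3 from Epx there. The kit changed between the same stages, so its part in this change of order cannot be told apart from that of the cells.

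From GMP to GATA2-GMP, all 3 genes rose in both genotypes. Values were fitted with edgeR's quasi-likelihood test after TMM scaling, which adjusts for composition differences between libraries, with Benjamini-Hochberg adjustment across every gene in the fit. In WT, the log2 rise of Prg2 was 10.40 (SE 0.87, adjusted p = 2.98e-05), or 1349-fold. Prg3 rose by 9.82 (SE 0.71, adjusted p = 1.62e-05), or 902-fold, and Epx by 9.52 (SE 0.81, adjusted p = 3.21e-05), or 733-fold. In KO the rises were 7.48 for Prg2 (SE 0.40, adjusted p = 6.39e-07), 7.33 for Prg3 (SE 0.33, adjusted p = 2.95e-07) and 5.53 for Epx (SE 0.42, adjusted p = 4.09e-06), or 178-fold, 160-fold and 46.3-fold. Such calls were common at this contrast: 34.1% of 12251 genes tested in WT and 38.6% of 12438 in KO were called higher, and groups without overlap in that direction were found for 36% and 39.9% of genes. By size of the change, Prg2, Prg3 and Epx stood 51st, 61st and 69th from the top in WT and 196th, 207th and 377th in KO.

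The size of the rise depended on the scaling. With library totals only, the median of all genes moved from -0.09 to -0.93 in WT and from -0.05 to -0.73 in KO, and the rises were 9.55, 8.97 and 8.70 in WT and 6.81, 6.65 and 4.89 in KO for Prg2, Prg3 and Epx. The split of calls moved with it, from 4176 higher and 4462 lower to 2501 and 6816 in WT, and from 4801 and 4976 to 3273 and 6681 in KO. The TMM fold of Prg2 in WT moved by over 1.5 times without GMP WT 1, to a log2 fold change of 11.05, and that of Prg3 to 10.43.

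In GMP, the Xbp1-deficient libraries held more of each granule transcript, but the spread was wide. The KO mean share was 2.96 times the WT mean for Prg2, and by replicate number the KO share was 2.51, 2.41 and 7.42 times the WT share. For Prg3 these were 1.92, 2.26 and 4.55, and for Epx 2.89, 2.14 and 5.11, so KO was higher in 3 of 3 numbered pairs for each gene. The two-sided exact permutation test of the shares gave p = 0.1 for Prg2 and for Epx, the smallest that 3 against 3 libraries allow, and p = 0.2 for Prg3. On the TMM scale, groups that do not overlap with KO higher were found for 9.48% of genes. The fitted log2 fold changes were 1.54 for Prg2 (SE 0.75, adjusted p = 0.461), 1.21 for Prg3 (SE 0.60, adjusted p = 0.466) and 1.54 for Epx (SE 0.56, adjusted p = 0.337). edgeR thus called 0 of 3 at an adjusted p of 0.05, where 3.17% of 12002 genes were called, and DESeq2 also called 0 of 3 (4.26% of genes called). Before adjustment 1 of 3 was under 0.05 (Epx, at 0.0474), but Epx stood only 1691st of the 12002 genes by p. The share of all genes under 0.05 before adjustment was not counted in any comparison. Counts at that cut, here and on the lists below, therefore have no background beside them and are not read as a result. Same-numbered GMP libraries deviated together, and with the replicate number as a block Prg3 passed (1.22, SE 0.17, adjusted p = 0.00379) while Prg2 (1.70, adjusted p = 0.253) and Epx (1.54, adjusted p = 0.169) did not; that fit called 964 genes (8.03%) against 381 without the block. Over the 11 alternatives the adjusted p of Prg3 ran from 0.00379 to 0.741.

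Other granulocyte and monocyte transcripts differed in the same GMP libraries, in both directions, and their part in the difference of the 3 genes was not tested. Of all genes in that comparison, edgeR called 3.17% and DESeq2 4.26%. On a list of 14 genes for neutrophil primary granules, the first granules of the lineage, 2 were called lower and 1 higher (4 and 1 by DESeq2). Not every gene on this list encodes a protein of those granules. Elane, neutrophil elastase, was at 4123, 4130 and 4565 CPM in WT and at 2072, 1943 and 1801 in KO, with no overlap (-1.18, SE 0.07, adjusted p = 1.01e-05, passed in all 11 alternatives). Hp, haptoglobin, was lower by a smaller amount (-0.31, adjusted p = 0.0235) and Gstm1, a glutathione transferase, higher (0.34, adjusted p = 0.0329), each passing in 7 of 11 alternatives. The sum of the primary granule list was 37609 to 39912 CPM in WT and 34066 to 38366 in KO, with no gene at 0, and the list's median was 0.02, since 8 of the 14 were positive. Of 12 tested genes of later neutrophil granules, all 12 had a positive fold change (median 1.37, against 0.0058 over all genes). Of these, 1, Cd177, a surface protein of neutrophils, passed the edgeR test at 1.38 (adjusted p = 0.00219), and DESeq2 called 2 higher. Cd177 rested on few counts, 30, 26 and 18 in WT and 80, 131 and 29 in KO. The summed level of the list was 207 to 228 CPM in the WT libraries and 290 to 407 in the KO libraries, with Mmp25 and Retnlg at 0 in GMP WT and no gene at 0 in GMP KO. Of 10 tested mast cell and basophil genes 5 were positive and 5 negative (median -0.05), and edgeR called 1 higher and DESeq2 2. The edgeR call was Fcer1a, a chain of the IgE receptor (1.49, adjusted p = 0.0224, passed in 8 of 11 alternatives). Fcer1a rested on 10, 13 and 19 counts in WT and on 61, 72 and 15 in KO. Mcpt8, the next of the list by p, was lower (-0.29, adjusted p = 0.0979). The list summed to 916 to 944 CPM in WT and 911 to 980 in KO. Mcpt1, Mcpt2, Mcpt4 and Tpsab1 were at 0 in both groups and Tpsb2 at 0 in KO as well. Of 13 tested monocyte and macrophage genes 10 were positive (median 0.25), edgeR called none (2 with an unadjusted p under 0.05) and DESeq2 called 1, the lipopolysaccharide co-receptor gene Cd14, higher; their sum was 2015 to 2533 CPM in WT and 2019 to 2879 in KO, with Ms4a7 at 0 in WT. Of 12 tested genes of stem and early progenitor cells edgeR called 1 lower (Sox4, a transcription factor, -0.31, adjusted p = 0.0137) and DESeq2 2, and edgeR called none of 8 erythroid and megakaryocyte genes (1 with an unadjusted p under 0.05; DESeq2 0) or of 4 lymphoid genes (0 under 0.05; DESeq2 0). Mpo, itself a primary granule gene, was at 2.33% ± 0.145 of counts in WT and 2.23% ± 0.160 in KO (n = 3 each, exact permutation p = 0.5).

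In GATA2-GMP the order turned: each KO library held less of Prg2, Prg3 and Epx than each WT library. The KO mean share was 0.441 of the WT mean for Prg2, 0.474 for Prg3 and 0.212 for Epx, each with an exact two-sided permutation p of 0.1, the smallest possible. On the TMM scale the log2 fold change was -1.37 for Prg2 (SE 0.35, adjusted p = 0.129), -1.27 for Prg3 (SE 0.31, adjusted p = 0.124) and -2.42 for Epx (SE 0.52, adjusted p = 0.0974). edgeR called 0 of 3 at an adjusted p of 0.05, with 0.376% of 11699 genes called. Before adjustment 3 of 3 were under 0.05 (0.00334 for Prg2, 0.00230 for Prg3 and 0.00117 for Epx). By p they stood 300th, 215th and 139th of the 11699 genes, and the share of all genes under that cut was not counted. Groups that do not overlap on the TMM scale, with KO lower, were found for 12.2% of genes. Epx was 19th from the bottom of the list of fold changes, Prg2 139th and Prg3 185th.

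These calls turned on the tool, on the filter on low counts and on 1 library. DESeq2 called 3 of 3, at -1.35 for Prg2 (adjusted p = 9.94e-06), -1.26 for Prg3 (adjusted p = 0.000826) and -2.40 for Epx (adjusted p = 3.12e-05), where it called 4.85% of genes. Without GATA2-GMP WT 3, edgeR called 3 of 3, at -1.45 (adjusted p = 0.0482), -1.42 (adjusted p = 0.0314) and -1.84 (adjusted p = 0.0381), where 4.38% of genes were called. With no filter on low counts Prg3 (adjusted p = 0.0240) and Epx (adjusted p = 0.00323) passed and Prg2 did not (adjusted p = 0.0586), with 1.53% of genes called. All 11 alternatives kept the negative sign, but the adjusted p ran over the 11 alternatives from 9.94e-06 to 0.590 for Prg2, from 0.000826 to 0.520 for Prg3 and from 3.12e-05 to 0.457 for Epx. Leaving out GATA2-GMP WT 3, the library with the most Epx, also brought the difference in Epx share from -1.15 to -0.619 percentage points.

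**Figure D2:**
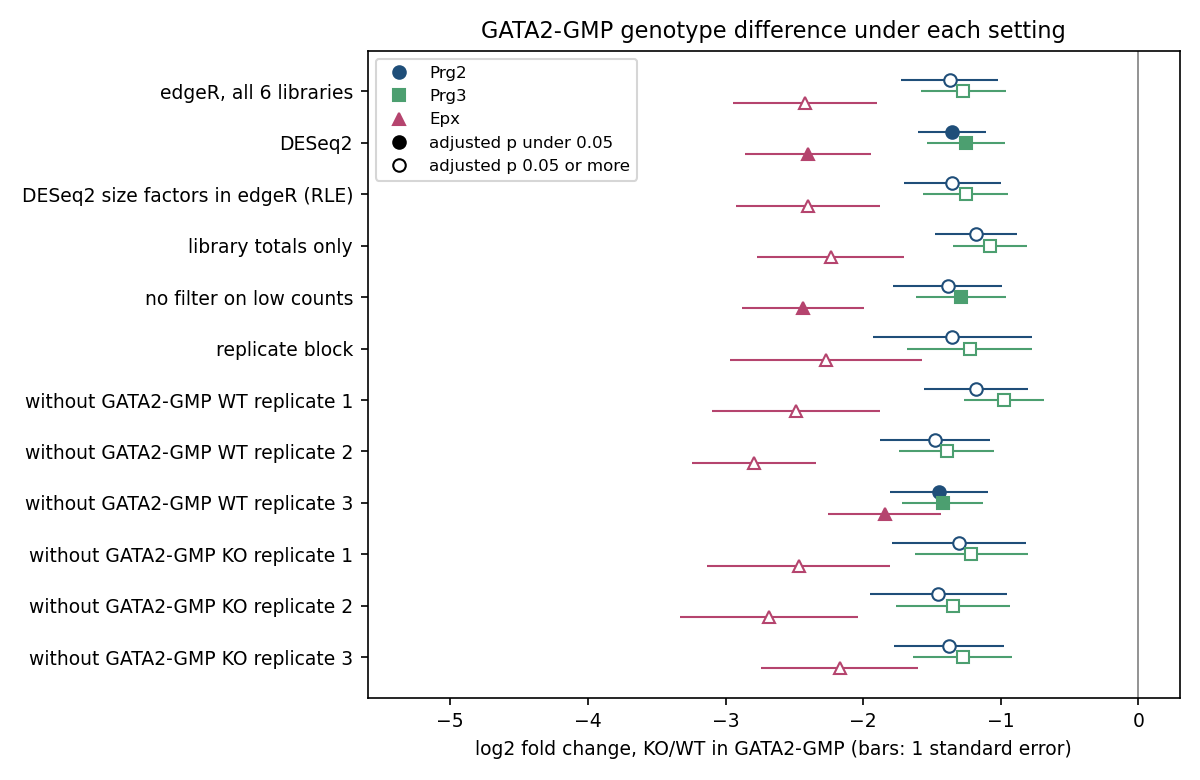
Log2 fold change of KO against WT in GATA2-GMP for Prg2, Prg3 and Epx under the edgeR fit of all 6 libraries and 11 alternatives, with bars of 1 standard error and filled points where the adjusted p is under 0.05. All points lie below 0; those of Epx run from -2.79 to -1.84, and the filled ones belong to DESeq2, to the fit with no filter (Prg3 and Epx) and to the fit without GATA2-GMP WT replicate 3.

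The difference between the 2 genotype effects was tested directly as an interaction over all 12 libraries. Unlike the genotype fits within a stage, this fit pooled the spread over both stages and kits. For Prg2 the pooled SE (0.70) was below that of the GMP effect alone (0.75), so the interaction p-values may be too small. The effect in GATA2-GMP minus that in GMP was -2.92 for Prg2 (SE 0.70, adjusted p = 0.0960), -2.49 for Prg3 (SE 0.61, adjusted p = 0.0961) and -3.99 for Epx (SE 0.75, adjusted p = 0.0609). edgeR called 0 of 3, where 0.0859% of 12803 genes were called, and all 3 unadjusted p-values were under 0.05 (0.00117, 0.00133 and 0.000148). By p the genes stood 156th, 175th and 30th of the 12803. DESeq2 called 3 of 3 (adjusted p = 0.000843, 0.00277 and 5.32e-06 for Prg2, Prg3 and Epx), where 6.21% of genes were called. Without GATA2-GMP WT 3 edgeR also called 3 of 3 (adjusted p = 0.0243, 0.0209 and 0.0106), with 9.03% of genes called, and without GATA2-GMP WT 2 it called Epx (-4.35, adjusted p = 0.0251), with 0.974% called. Over 17 alternatives the adjusted p ran up to 0.264 for Prg2, 0.273 for Prg3 and 0.179 for Epx, and none of them changed the sign.

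**Figure D3:**
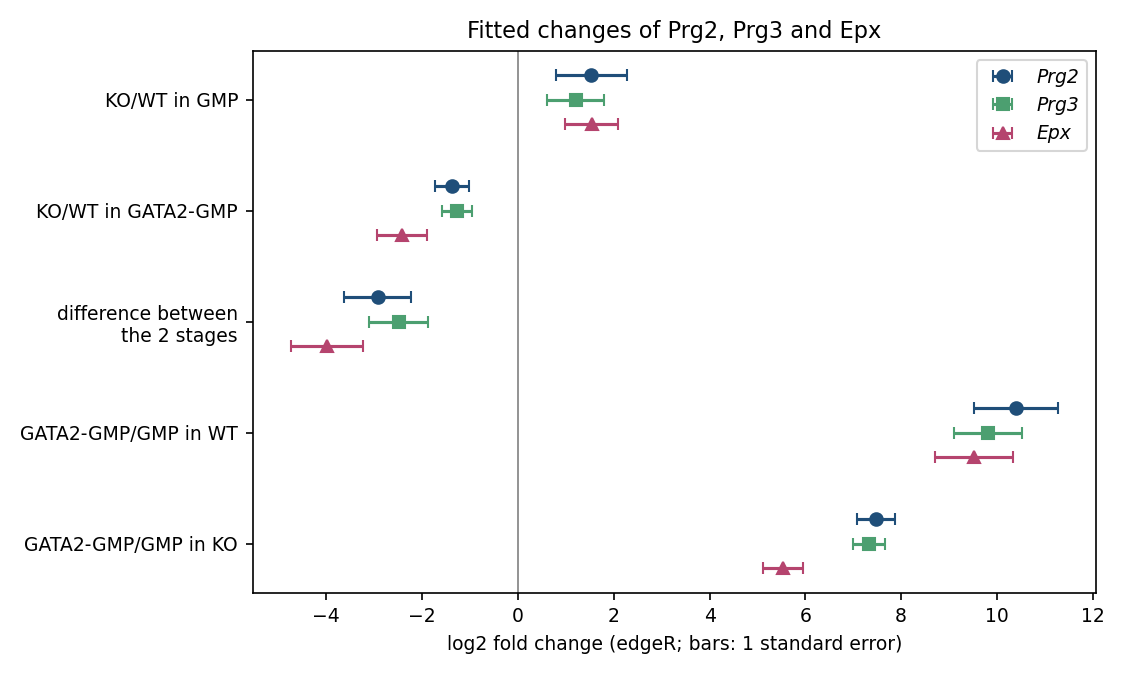
Fitted log2 fold changes from edgeR for the 5 comparisons (rows) with bars of 1 standard error; the third row is the genotype effect in GATA2-GMP minus that in GMP. The 3 genes lie at 1.21 to 1.54 for KO/WT in GMP, at -2.42 to -1.27 for KO/WT in GATA2-GMP, and at 5.53 to 10.40 for both comparisons of GATA2-GMP with GMP.

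Ratios within a library need no scaling between libraries and show whether the genes moved by unequal amounts. Per 100 Prg2 counts, Prg3 stood at 5.98, 5.83 and 7.31 in GMP WT, at 4.58, 5.47 and 4.48 in GMP KO, at 4.47, 3.98 and 3.60 in GATA2-GMP WT and at 4.42, 4.30 and 4.35 in GATA2-GMP KO. The GATA2-GMP values lay below the GMP values of the same genotype without overlap, in WT and in KO, a difference that was not tested. Over all libraries the ratio ran from 3.60 to 7.31, while Prg2's own share ran from 0.00402% to 12.2%. In GMP the KO values all lay below the WT values (log2 difference -0.39), with an exact permutation p of 0.1, the smallest possible, and an adjusted p of 0.48 over 6 ratio tests.

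Epx was less tightly tied to Prg2. Per 100 Prg2 counts it stood at 22.8, 26.6 and 41.3 in GMP WT and at 26.2, 23.6 and 28.5 in GMP KO. It stood at 10.2, 6.95 and 26.2 in GATA2-GMP WT and at 8.03, 8.14 and 4.15 in GATA2-GMP KO. GATA2-GMP WT 3 lay within the GMP range, and the other 5 GATA2-GMP libraries lay below it. KO against WT, the log2 difference of this ratio in GATA2-GMP was -0.93 (exact permutation p = 0.3, adjusted p = 0.48), and -0.38 without GATA2-GMP WT 3, so an unequal fall of Epx and Prg2 was not shown. The 4 other ratio tests gave p from 0.3 to 0.8.

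**Figure D4:**
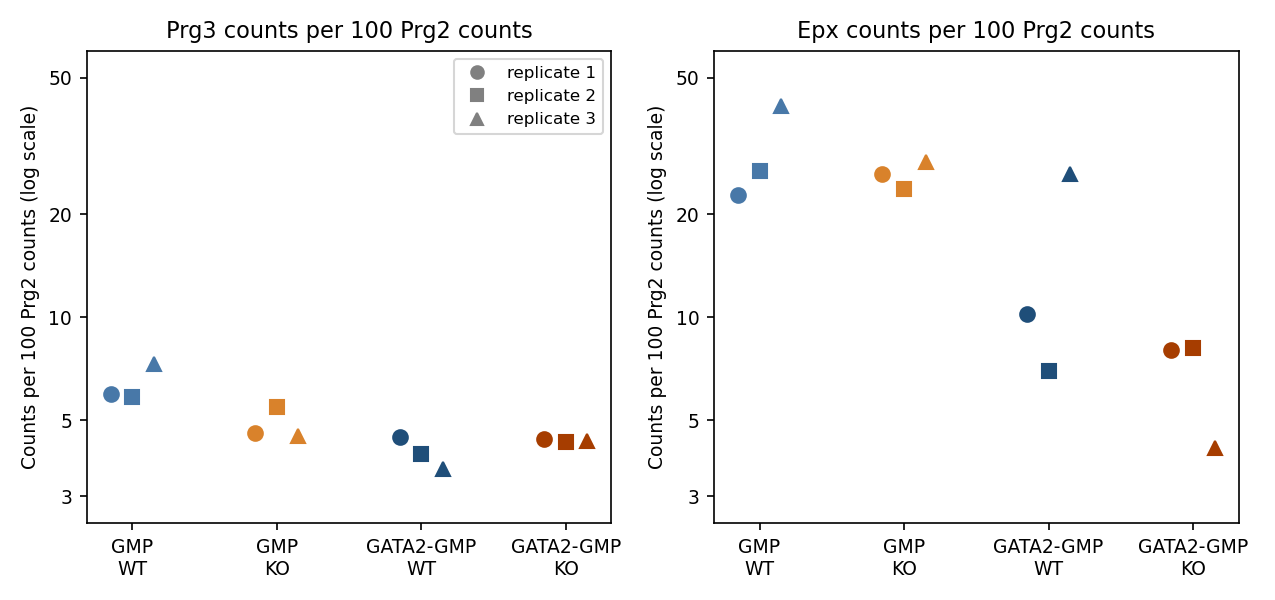
Counts of Prg3 (left) and Epx (right) per 100 counts of Prg2 in each library, on a log scale, with point shape giving the replicate number. Prg3 runs from 3.60 to 7.31 and is lower in GATA2-GMP than in GMP of the same genotype, whereas Epx spans 4.15 to 41.3 and GATA2-GMP WT replicate 3, at 26.2, stands apart from the other GATA2-GMP libraries.

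Epx and its neutrophil relative went opposite ways between stages. Mpo fell by 3.001 on the log2 scale in WT (adjusted p = 3.13e-05) and by 3.37 in KO (adjusted p = 1.70e-06). Epx counts were 0.000671 to 0.00642 of Mpo counts in the 6 GMP libraries. In GATA2-GMP they were 9.66, 3.86 and 12.4 times the Mpo counts in WT, and 2.52, 2.49 and 1.67 times in KO, with no overlap between the genotypes. Mpo took 0.164% ± 0.0383 of counts in GATA2-GMP WT and 0.136% ± 0.0328 in KO (n = 3 each, exact permutation p = 0.5). Among 4 tested relatives in this enzyme family, Lpo, lactoperoxidase, fell by 7.51 with the stage in WT and fell by 5.67 in KO, and Ptgs1, cyclooxygenase, rose by 3.74 and 2.72. The sizes for Lpo rest on few counts, 1, 1 and 0 in GATA2-GMP WT and 2, 7 and 0 in KO. By genotype in GATA2-GMP, edgeR called none of 3 tested relatives and DESeq2 called 1 higher (0.376% and 4.85% of all genes called). Ptgs2, another cyclooxygenase, was the 1 with an unadjusted p under 0.05 in edgeR (2.22, adjusted p = 0.125). Of 14 genes of heme synthesis and its iron supply, which feed peroxidases, none was called by genotype by edgeR in either stage (1 of 13 tested had an unadjusted p under 0.05 in GMP and 3 of 14 in GATA2-GMP, and DESeq2 called 0 and 1); their summed level was 1481 to 2701 CPM in GATA2-GMP WT and 1997 to 2264 in KO.

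Some eosinophil ribonuclease genes, which encode cationic granule RNases, were also lower in GATA2-GMP KO. Of 11 listed Ear genes 3 could be tested, and 2 were called lower, where 0.376% of all genes were called. Ear1 was at 254, 54.7 and 83.3 CPM in GATA2-GMP WT and at 1.27, 1.96 and 1.74 in KO (log2 fold change -6.51, SE 0.67, adjusted p = 0.00899). Ear2 was at 89.6, 25.7 and 26.7 CPM in WT and at 0.864, 0.761 and 0.449 in KO (-6.30, SE 0.64, adjusted p = 0.00899), and Ear6 had -2.44 (adjusted p = 0.103). The genotype effect of Ear1 and Ear2 also differed between stages, by -6.74 for Ear1 (adjusted p = 0.0277) and -6.58 for Ear2 (adjusted p = 0.0321), calls that passed in 10 and 9 of 17 alternatives. For that interaction edgeR called 0.0859% of all genes. Some Ear genes are close copies of each other, which was not measured here, so reads may have been split or dropped among those. Of the 11 listed, 5 were at 0 in both GATA2-GMP groups. The 2 calls in GATA2-GMP were lost without GATA2-GMP KO 1 (adjusted p = 0.0951) or KO 3 (adjusted p = 0.0584) and passed in the other 9 of 11 alternatives. In GMP 2 Ear genes could be tested by genotype and neither was called. Ear1 had 0.20 (adjusted p = 0.864) and Ear6 -0.11 (adjusted p = 0.970), each on 75 counts or fewer per library.

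Most tested receptor and enzyme genes of eosinophils were called higher with the stage, and edgeR called none by genotype. Of 17 tested, 14 rose and 2 fell between GMP and GATA2-GMP in each genotype (13 and 3 in KO with library totals only), where 34.1% of all genes in WT and 38.6% in KO were called higher. Those that fell were Il3ra, the IL-3 receptor chain (36.2 to 2.08 mean CPM in WT), and Csf2ra, that of GM-CSF (116 to 25.0); in WT the smallest p-values belonged to Csf2rb2 (6.74), a cytokine receptor chain, Il1rl1 (6.54), the IL-33 receptor, and Alox5 (8.13), a leukotriene-forming enzyme. In GATA2-GMP, edgeR called 0 of 17 by genotype, while 5 had an unadjusted p under 0.05 and were lower in KO, and DESeq2 called 2 lower. Il5ra, the IL-5 receptor chain of eosinophils, was at 35.9, 30.0 and 75.3 CPM in GATA2-GMP WT and at 23.3, 31.4 and 23.4 in KO, so the groups overlapped (-1.02, adjusted p = 0.214). Ccr3, the eotaxin receptor, was at 37.2, 13.4 and 13.4 CPM in WT and at 4.37, 4.30 and 5.33 in KO (-2.39, adjusted p = 0.0745), and Siglec5 had -1.91 (adjusted p = 0.0648). The summed level of the 17 genes was 9135 to 9416 CPM in WT and 8716 to 9411 in KO. In GMP, edgeR called 0 of 14 tested genes of this list by genotype, where 3.17% of all genes were called. With an unadjusted p under 0.05, 4 were higher and 2 lower in KO, and DESeq2 called 1 higher and 1 lower. There Il5ra was at 2.02, 0.985 and 0.896 CPM in WT and at 4.30, 2.20 and 3.04 in KO (1.23, adjusted p = 0.115).

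Genes that route and package granule cargo formed a list of 20, of which 19 were found by symbol and 18 were tested, Vamp7 being at 0 in every group. With the stage, 13 of 18 rose in WT, where 34.1% of all genes were called higher, among them Cd63, a granule membrane tetraspanin (5.18), and the fusion protein genes Stx3 (5.03) and Snap23 (3.98), and 1 fell. With library totals only, 11 rose and 4 fell in WT. In KO 13 rose and 4 fell, where 38.6% of all genes were called higher, and 12 rose and 5 fell with library totals only. By genotype edgeR called 1 of 18 in each stage, where 3.17% of all genes were called in GMP and 0.376% in GATA2-GMP. That gene was Lamp1, a lysosomal membrane glycoprotein, which was lower in KO by -1.35 in GMP (adjusted p = 0.000756) and -2.57 in GATA2-GMP (adjusted p = 0.00899, lost under 3 of 11 alternatives). DESeq2 called 2 lower in GMP (4.26% of all genes called), and 3 lower and 1 higher in GATA2-GMP (4.85% called).

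The ER list held 36 genes of protein import and folding. In GMP 26 of 36 fell and none rose, with a median of -0.65, where 3.17% of all genes were called in either direction. The smallest p-values belonged to Rpn1, a subunit of the glycosylating complex (-1.37), Spcs2 of the signal peptidase (-0.81) and Hyou1, a chaperone (-1.21), each with an adjusted p of 1.31e-05. In GATA2-GMP 5 of 36 fell and none rose, again with a median of -0.65, where 0.376% of all genes were called. Among the 5 were Rpn1 (-2.004, adjusted p = 0.0115), the co-chaperone gene Dnajb11 (-1.82, adjusted p = 0.0187) and Creld2 (-2.34, adjusted p = 0.0271). DESeq2 called 13 lower and 2 higher, where it called 4.85% of all genes, and edgeR with library totals only called 3 lower. No ER gene was called by the interaction in edgeR (0.0859% of all genes called), where 9 of 36 had an unadjusted p under 0.05, and DESeq2 called 6 (6.21% of all genes called).

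Other granulocyte lists were measured in the same GATA2-GMP libraries. By genotype, edgeR called 0.376% of all genes there and DESeq2 4.85%. Of 16 tested genes of later neutrophil granules none was called by genotype by edgeR (12 positive, 4 with an unadjusted p under 0.05) and 1 by DESeq2, and their sum was 30251 to 50799 CPM in WT and 32983 to 47826 in KO. The list of mast cell and basophil genes summed to 3645 to 10620 CPM in WT and 7595 to 10894 in KO, with 0 of 16 called by edgeR (4 with an unadjusted p under 0.05), 1 by DESeq2, and a median of 0.82. Of the 14 genes on the primary granule list edgeR called none (4 with an unadjusted p under 0.05) and DESeq2 called 2 lower, Prss57, a serine protease (-1.24, adjusted p = 0.000798), and Elane (-1.56, adjusted p = 0.0106), whose groups overlapped. Prss57 was at 309, 220 and 193 CPM in WT and at 116, 112 and 116 in KO, without overlap. The primary granule list summed to 6765 to 9879 CPM in WT and 6292 to 7624 in KO. Of 14 tested monocyte and macrophage genes 11 were positive (median 0.60); edgeR called none (6 with an unadjusted p under 0.05) and DESeq2 called 4 higher, Cd74, C1qb, Ccr2 and Ms4a7. Cd74, a chain that escorts MHC class II, was at 12.8, 38.7 and 45.1 CPM in WT and at 113, 109 and 118 in KO. C1qb, a complement subunit, had 0 counts in each WT library and 16, 15 and 10 in KO. The monocyte list summed to 2454 to 5496 CPM in WT and 2023 to 3764 in KO, with C1qa and C1qb at 0 in WT and no gene at 0 in KO. Of 5 tested lymphoid genes edgeR called none (2 with an unadjusted p under 0.05) and DESeq2 called Ccl5, a chemokine, and Il7r, the IL-7 receptor, higher; the list summed to 35.7 to 55.8 CPM in WT and 47.2 to 80.7 in KO, with Pax5 at 0 in both. For 8 erythroid and megakaryocyte genes edgeR called 0 (2 with an unadjusted p under 0.05; DESeq2 1 lower), and for 8 stem and early progenitor genes 0 (2 under 0.05; DESeq2 0). The part of these lists in the lower granule share of KO was not tested. Of 17 tested transcription factors of granulocyte lineages edgeR called none (3 with an unadjusted p under 0.05) and DESeq2 called 1; Gata1, which is needed for eosinophils, was at 99.9, 86.9 and 160 CPM in WT and at 96.9, 119 and 75.8 in KO.

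The neighbours on the chromosomes had smaller log2 fold changes with the stage than the 3 genes, or negative ones. P2rx3, an ATP-gated channel gene on the far side of Prg3, rose by 3.93 in WT (adjusted p = 0.000520) and 2.77 in KO. Slc43a3, before Prg2, changed by 0.54 in WT (adjusted p = 0.0258) and 0.22 in KO (adjusted p = 0.263), and with library totals only its sign flipped, to -0.29 (adjusted p = 0.200) and -0.44 (adjusted p = 0.0827), neither called. Slc43a1 and Tnks1bp1 fell with the stage in both genotypes. Beside Epx, Mpo and Lpo fell, and Mks1, a cilium gene, rose by 0.69 in WT with TMM (adjusted p = 0.0231; -0.14, adjusted p = 0.582, with library totals only) and fell by 0.83 in KO (adjusted p = 0.00296). Mks1 was at 18.2, 11.8 and 19.9 CPM in GATA2-GMP WT and at 5.74, 8.16 and 6.51 in KO, with no overlap (-1.46, SE 0.29, adjusted p = 0.0780). Its end lies 196 nucleotides from that of Epx on the opposite strand, and whether reads of one were counted to the other was not tested.

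As a description, the likeness of profiles was measured by Pearson's r of log2 CPM. Over all 12 libraries, which form 2 clusters by stage and kit, Prg2 and Prg3 were each other's closest of 12802 genes (r = 0.999). Epx was closest to Ubash3b (0.993), Il5ra (0.993) and Ptgs1 (0.992), with Prg2 9th and Prg3 16th. Over the 6 GMP libraries Prg3 was 3rd to Prg2 (0.993), behind Msh5 and Rhou, and Epx was closest to Limk2 (0.996) with Prg2 15th. Over the 6 GATA2-GMP libraries, which share the genotype difference, Ear1 was closest to Prg2 (0.997), with Prg3 28th (0.989) and Epx 879th (0.859). Prg3 was closest to Plaa (0.999) and Tspan5 (0.999) there, with Dnajb9, an ER co-chaperone gene, 4th (0.997). Epx was closest to Pbxip1 (0.998), a gene 2510039O18Rik (0.998) and Neu1, a sialidase gene (0.998), with Prg2 647th. Thus Prg2 and Prg3 had close profiles in each stage, and Epx was near them in GMP and farther from them in GATA2-GMP. There, GATA2-GMP WT 3 stood apart, with 26.2 Epx counts per 100 of Prg2 against 4.15 to 10.2 in the other GATA2-GMP libraries. Likeness was not measured without that library, and with 6 libraries many genes reach a high r.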

How the data were processed

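The deposited files hold raw counts per gene and library; the authors' build was mm9, and STAR 2.3.0, SAMtools 0.1.14, HTSeq and DESeq are named without roles per the submitters' processing notes. How strand was used is not given in the sources used here. Each table lists 23366 genes and 5 counter rows, which took 55.8% to 66.5% of records and were left out. In the files of the GMP libraries, 27 gene names had become dates; 23 were restored and 4 left out. No pair of libraries was a duplicate (at least 14460 genes with unequal counts).

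Shares use all gene counts and were compared by exact permutation tests. In GMP they were also compared by flipping signs within numbered pairs. Fits used R 4.3.3 and edgeR 4.0.16 (filterByExpr, TMM, glmQLFit with robust=TRUE, glmQLFTest, Benjamini-Hochberg, threshold 0.05), checked on simulated data, with DESeq2 1.42.0 as an alternative. Other alternatives were RLE scaling, library totals, no filter, a replicate block and leaving out each library. Same-numbered GMP WT and KO libraries deviated together (correlations 0.318, 0.249 and 0.192), so there the numbers were taken to pair the samples, from the data since no label states it; in GATA2-GMP they did not (-0.160, -0.314 and -0.486).

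Named genes are the 3 members, at most 3 genes per list with the smallest p in the comparison described, the 5 most alike profiles per member and up to 3 neighbours on each side; genes named outside these rules (Xbp1, Gata2, Gata1, and genes at 0) are checks, except Il3ra, Csf2ra and Ccr2, named after their values were seen. The members and gene lists were chosen with earlier results of these data known. Gene coordinates and coding sequences are from GENCODE annotation of mm9; promoter windows are from RefSeq.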

Additional observations from a re-analysis of the deposited data

How the results depend on the processing

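Both stage comparisons kept their direction and passed the threshold for all 3 genes under all 11 alternatives each. In GMP, without 1 library at a time, the log2 fold change ran from 1.11 to 2.19 for Prg2, from 0.84 to 1.82 for Prg3 and from 1.12 to 1.98 for Epx, each highest without GMP WT 1, and genes called ran from 209 to 398; the lowest counts were without GMP KO 3 (209) and GMP WT 3 (237). With the replicate block, Prg3 stood at 1.22 (adjusted p = 0.00379) and 964 genes were called against 381. The block changed no other call of a member.

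In GATA2-GMP, DESeq2 gave -1.35 for Prg2, -1.26 for Prg3 and -2.40 for Epx, and called 567 genes against edgeR's 44. With no filter on low counts Prg3 was at -1.29 and Epx at -2.44, with 294 genes called. The replicate block left 3. Without 1 library at a time, Prg2 ran from -1.48 to -1.18, Prg3 from -1.42 to -0.98 and Epx from -2.79 to -1.84, and genes called from 0 (without GATA2-GMP KO 1 or KO 3) to 525 (without GATA2-GMP WT 3), with 8 without WT 1, 28 without WT 2 and 20 without KO 2.

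For the interaction, DESeq2 gave -2.95 for Prg2, -2.52 for Prg3 and -4.01 for Epx with 794 genes called against 11, RLE scaling gave 17 and no filter 40. Without 1 library at a time, Prg2 ran from -3.59 to -2.49, Prg3 from -3.12 to -2.09 and Epx from -4.43 to -3.40, and genes called from 0 to 1179, the most without GATA2-GMP WT 3. The cause was not tested.

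With library totals only, calls split 144 higher to 254 lower in GMP (79 to 302 with TMM), 17 to 20 in GATA2-GMP (12 to 32) and 8 to 7 for the interaction (4 to 7; 4 to 13 with RLE), and the median of all genes moved by 0.18 in GATA2-GMP and 0.16 for the interaction. Shares and ratios kept their sign under their alternatives, except Epx over Prg2 in GMP, whose difference, not called, was -0.17 and became 0.08 without GMP WT 3. The fewest counts were the 46 of Prg3 in GMP WT 3, where the spread between GMP WT libraries (4.78 times from lowest to highest) was still wider than the counting interval; in GATA2-GMP each gene had at least 30377 counts. The spread between libraries sets the error in both stages.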
